A study of Mus musculus with 4 samples.

Results

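S phase and DNA replication genes are described here as a set of 35 named genes, followed across sorted mouse intestinal epithelial cells. The set was fixed by symbol: Mcm2 to Mcm7, Mcm10, Cdc6, Cdt1, Cdc45, Gins1, Gins2, Clspn, Tipin, Dtl, Pola1, Prim1, Prim2, Pold1, Pole, Pcna, Rfc2 to Rfc5, Fen1, Lig1, Tyms, Rrm1, Rrm2, Dut, Ung, Uhrf1, Hells and Slbp. All 35 symbols were found among the 31054 features of the count matrices. RNA was counted in single cells by droplet sequencing with the 10x Chromium 3′ kit, in 4 libraries. Each library was a group of its own: E12.5 and E17.5 (days of embryonic development), the unirradiated adult, and the adult after irradiation. Values given in library order follow that sequence. All 4 groups carry the Bmi1-GFP genotype, a reporter in which the Bmi1 locus drives green fluorescent protein, and all cells were isolated by flow cytometry from dissociated intestinal tissue. Per the labels' protocols, E12.5 samples came from dissected intestine and E17.5 samples from dissected small intestine. The radiation dose, the time after irradiation, the number of animals per library, the adult age and the sorting gates are not given in the sources used here. No group was replicated, so values carry intervals for counting error only and no test between groups was made.

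DNA replication begins with licensing, when Cdc6 and Cdt1 help to load the Mcm2 to Mcm7 helicase ring onto origins in G1. In S phase Cdc45 and the GINS complex turn that ring into an active helicase, primase and the polymerases copy the strands, the sliding clamp Pcna is loaded by the Rfc complex, and Fen1 and Lig1 process and join the lagging strand pieces. Many of these genes are known targets of E2F transcription factors, which act when cells pass from G1 into S. In the adult intestine such transcripts are known mainly from the dividing crypt base columnar stem cells and their transit-amplifying daughters, whereas enteroendocrine, tuft and Paneth cells are differentiated cells that rarely divide.

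Because many of these genes are E2F targets by textbook knowledge, their promoters were read from RefSeq, build GRCm38.p6, as the 250 bases before each start listed in the promoter table. Of the 35 genes, 28 were found there, with 33 windows, of which 14 overlap the annotated gene because the listed start lies inside its bounds; Mcm4, Gins1, Gins2, Tipin, Prim2, Pole and Rfc2 were not. The search used the E2F letters TTTCCCGC, TTTCGCGC, TTTGCCGC and TTTGGCGC, the CCAAT box and the CHR letters TTTGAA, on both strands, and overlapping matches were counted separately. An E2F match was present in 9 of the 28 genes (32.1%), against 2.16% of all 27025 genes in the table: Mcm5, Mcm6, Mcm7, Cdc6, Dtl, Pola1, Rfc3, Uhrf1 and Hells. CCAAT was present in 60.7% of the matched genes and in 37.5% of all genes, and TTTGAA in 10.7% and 18.3%. The median GC content of the windows was 62.4% for the matched genes and 52.4% for all, and its part in these shares was not tested. For comparison, of 14 matched genes of the later G2/M program, 13 held CCAAT and 1 held an E2F match. The windows of Mcm6 (chr1:128359706-128359955, minus strand, 3 matches), Dtl (chr1:191575545-191575794, minus strand, 1 match) and Rfc3 (chr5:151651209-151651458, minus strand, 1 match) show matches close to the start, and each ends at the outer bound of the annotated gene. The window of Slbp (chr5:33652575-33652824, minus strand) is shown beside them because it holds none of the E2F letters. The same was true of 19 of the 28 genes, among them Rrm2, and the E2F letters were not compared with the levels. Each is printed from 5′ to 3′ on the gene's strand, with E2F matches in capitals:
Mcm6: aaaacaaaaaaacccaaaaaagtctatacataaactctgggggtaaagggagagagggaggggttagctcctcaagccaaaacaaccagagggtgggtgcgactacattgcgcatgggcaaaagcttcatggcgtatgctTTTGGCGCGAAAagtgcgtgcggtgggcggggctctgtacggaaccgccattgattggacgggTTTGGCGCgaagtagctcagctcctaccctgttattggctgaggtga
Dtl: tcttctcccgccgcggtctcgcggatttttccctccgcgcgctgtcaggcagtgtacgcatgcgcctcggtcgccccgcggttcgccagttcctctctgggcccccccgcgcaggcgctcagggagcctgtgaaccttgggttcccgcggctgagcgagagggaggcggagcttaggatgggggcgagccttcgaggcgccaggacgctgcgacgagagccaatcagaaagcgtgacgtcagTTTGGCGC
Rfc3: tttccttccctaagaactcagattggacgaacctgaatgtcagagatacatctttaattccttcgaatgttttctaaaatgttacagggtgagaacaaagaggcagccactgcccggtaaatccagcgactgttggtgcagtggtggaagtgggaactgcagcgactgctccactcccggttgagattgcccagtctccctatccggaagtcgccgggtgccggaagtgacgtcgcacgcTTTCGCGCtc
Slbp: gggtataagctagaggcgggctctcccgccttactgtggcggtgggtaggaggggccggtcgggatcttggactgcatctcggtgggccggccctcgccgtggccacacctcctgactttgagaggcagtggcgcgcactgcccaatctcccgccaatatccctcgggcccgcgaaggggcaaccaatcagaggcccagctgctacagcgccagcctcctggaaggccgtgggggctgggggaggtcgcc
The last base of the nearest match lies 40 bases before the start in Mcm6, 1 base before it in Dtl and 3 bases before it in Rfc3. In Mcm6 the long run in capitals holds 2 overlapping matches, 1 on each strand. A match describes the letters of this window and is not evidence of a bound site.

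The libraries differed in depth and quality. They held 5216, 5232, 6287 and 5996 barcodes in library order. Of these, 81.0%, 88.0%, 60.3% and 53.1% passed a filter of 500 genes or more and no more than 20% mitochondrial UMIs (unique molecular identifiers, which count captured RNA molecules). After removal of putative doublets 4050, 4409, 3597 and 3031 cells remained, with medians of 18081.5, 11003, 3607 and 8554 UMIs. Pairs of libraries shared between 6 and 12 barcodes. Epithelial markers (Epcam, Cdh1, Krt8, Krt18, Krt19, Cldn7 and Cldn3) were all at 50 CPM or more (UMIs of a gene, scaled to a total of 1000000) in every library. The E17.5 library also held clusters with pancreatic acinar, mesenchymal, smooth muscle and mesothelial markers, and these were left out, leaving 3615 epithelial cells there. Those 3615 include 139 islet-like cells and an unnamed cluster of 97 cells led by Ppy. No E12.5 cluster was named enteroendocrine-like. Such cells made up 37.7%, 61.7% and 70.0% of the epithelial cells in the other 3 libraries, and tuft-like cells 27.1% of the adult and 15.8% of the irradiated adult cells. The cells outside these 2 classes are called other epithelial cells and number 4050, 2253, 403 and 429. The 429 include 1 unnamed cluster of 158 cells, 36.8% of them. It was led by Afp, Gstk1, Tac1, Vim and Trpa1, scored highest for the enteroendocrine list, and had no marker of that list among its 10 leading genes. The 70.0% include 1 cluster of 73 cells with a median of 1900 UMIs, whose 10 leading genes were Pyy and Gcg beside Ly6d, Clu, Lama3, Ly6a, Lgals3, Anxa3, Anxa2 and Serpinb5. Enteroendocrine-like cells were 67.6% of that library without this cluster and 75.2% with the unnamed one counted in.

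Summed over the 35 genes, the level was highest at E12.5 and lowest in the irradiated adult. It was 3679.7 CPM (95% Poisson interval 3667 to 3693) at E12.5 and 1936 (1925 to 1947) at E17.5. In the adult it was 752 (742 to 761), and after irradiation 323 (317 to 329). The ratio was 1.90-fold lower at E17.5 than at E12.5, 2.58-fold lower in the adult than at E17.5 and 2.33-fold lower after irradiation than in the adult. In a sum over cells, fewer expressing cells and less RNA per cell cannot be told apart. The share of cells past a fixed count was also taken. It too depends on the level per cell and on the depth of the draw, so it does not separate them. A random draw of 2000 UMIs was taken from each cell, which left out 571, 155, 646 and 483 shallower cells, and a cell with at least 3 UMIs over the set was counted. Such cells made up 92.6% (Clopper-Pearson 95% interval 91.7% to 93.5%) at E12.5 and 37.5% (35.9% to 39.2%) at E17.5. They made up 6.88% (5.99% to 7.85%) of adult cells and 2.94% (2.32% to 3.68%) of irradiated adult cells. Without thinning the shares were 95.04%, 77.6%, 27.6% and 41.2%, and there the irradiated adult, with its deeper cells, lay above the adult. At 2000 UMIs, 0.69% of E12.5 cells, 26.3% of E17.5 cells, 51.3% of adult cells and 60.6% of irradiated adult cells had no UMI of any of the 35 genes. Median mitochondrial shares of the epithelial cells were 4.42%, 3.60%, 9.77% and 5.05%. The part of depth and of cell quality in the differences between libraries was not tested.

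**Figure D1:**
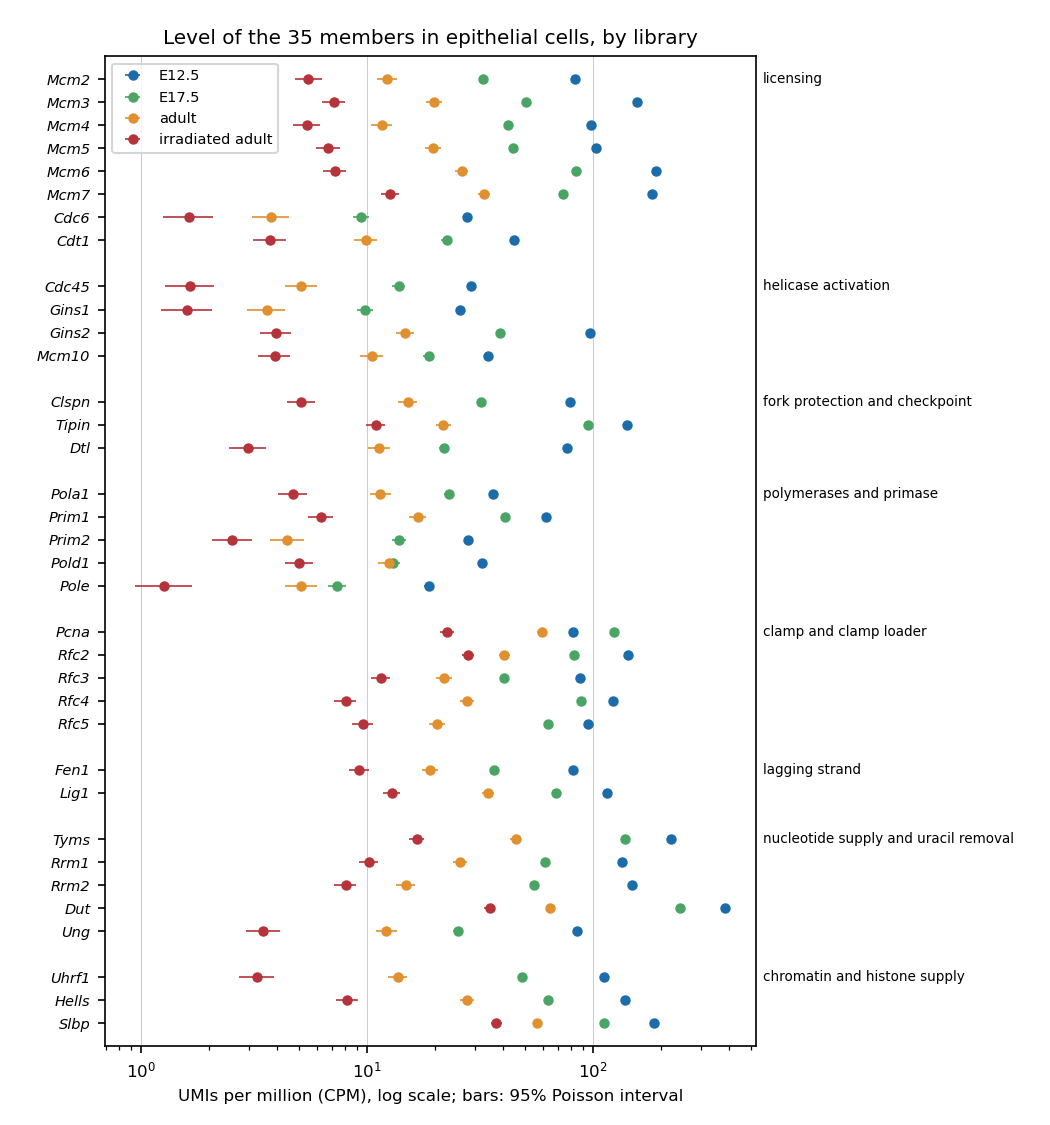
Level of each of the 35 genes in the epithelial cells of each library, in CPM on a log axis, with points for the libraries and bars for exact 95% Poisson intervals. For 34 genes the E12.5 point is the highest of the 4; the exception is Pcna, at 81.3 CPM at E12.5 and 124 at E17.5.

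The classes of cells present moved with the libraries. Other epithelial cells summed to 2232, 1383 and 409 CPM in the last 3 libraries of that order, and 56.9%, 44.0% and 6.05% of them had at least 3 UMIs of the set at 2000 UMIs. The unnamed irradiated cluster stood at 233 CPM and 0.671%, and the other epithelial cells without it at 431 CPM and 9.27%. In the adult they were 11.2% of the cells and gave 76.8% of the set's UMIs. Within them, 103 crypt base columnar stem-like cells, 2.86% of the adult cells with a median of 47005 UMIs, gave 59.9%. The mean of each cell's own CPM, which weights deep and shallow cells alike, was 3652, 1393, 456 and 304 CPM in library order.

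Between E12.5 and E17.5, 21 of the 35 genes were at least 2-fold lower and 0 at least 2-fold higher, where 14.4% of the 16787 genes that reached 10 UMIs in 1 library or both were lower by that much and 13.3% higher. The median log2 ratio of the set, on CPM + 1, was -1.12, beside -0.15 over all genes. In other epithelial cells 12 genes were 2-fold lower (all genes 16.4%) and the median was -0.92 (all genes -0.21). Between E17.5 and the adult 25 genes were 2-fold lower (all genes 12.6%), with a median of -1.16 (all genes -0.07). In other epithelial cells that count was 4 (all genes 14.2%) and the median -0.50 (all genes -0.38), so outside the enteroendocrine-like and tuft-like classes the share of the set past 2-fold was near that of all genes. Between the adult and the irradiated adult 24 genes were 2-fold lower (all genes 4.78%), with a median of -1.23 (all genes -0.04), and in other epithelial cells 34 of 35 were (all genes 12.1%), with a median of -1.75 (all genes -0.16). The cells on both sides of this last comparison were unlike: 103 of the 403 adult cells were crypt base columnar stem-like, a name no irradiated cluster carried, and the 158 cells of the unnamed cluster stood on the irradiated side alone. Without those 158 cells, left out after seeing the data, 32 genes were 2-fold lower (all genes 15.6%), with a median of -1.66 (all genes -0.35). When cells were weighted alike, by averaging their own CPM, 6 genes were 2-fold lower after irradiation (all genes 3.92%) and the median was -0.63 (all genes 0.03). With a pseudocount of 10 CPM the counts were 10 for the adult against E17.5 (all genes 5.41%) and 5 after irradiation (all genes 1.17%). The last 2 comparisons share the adult library and the first 2 share the E17.5 library.

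**Figure D2:**
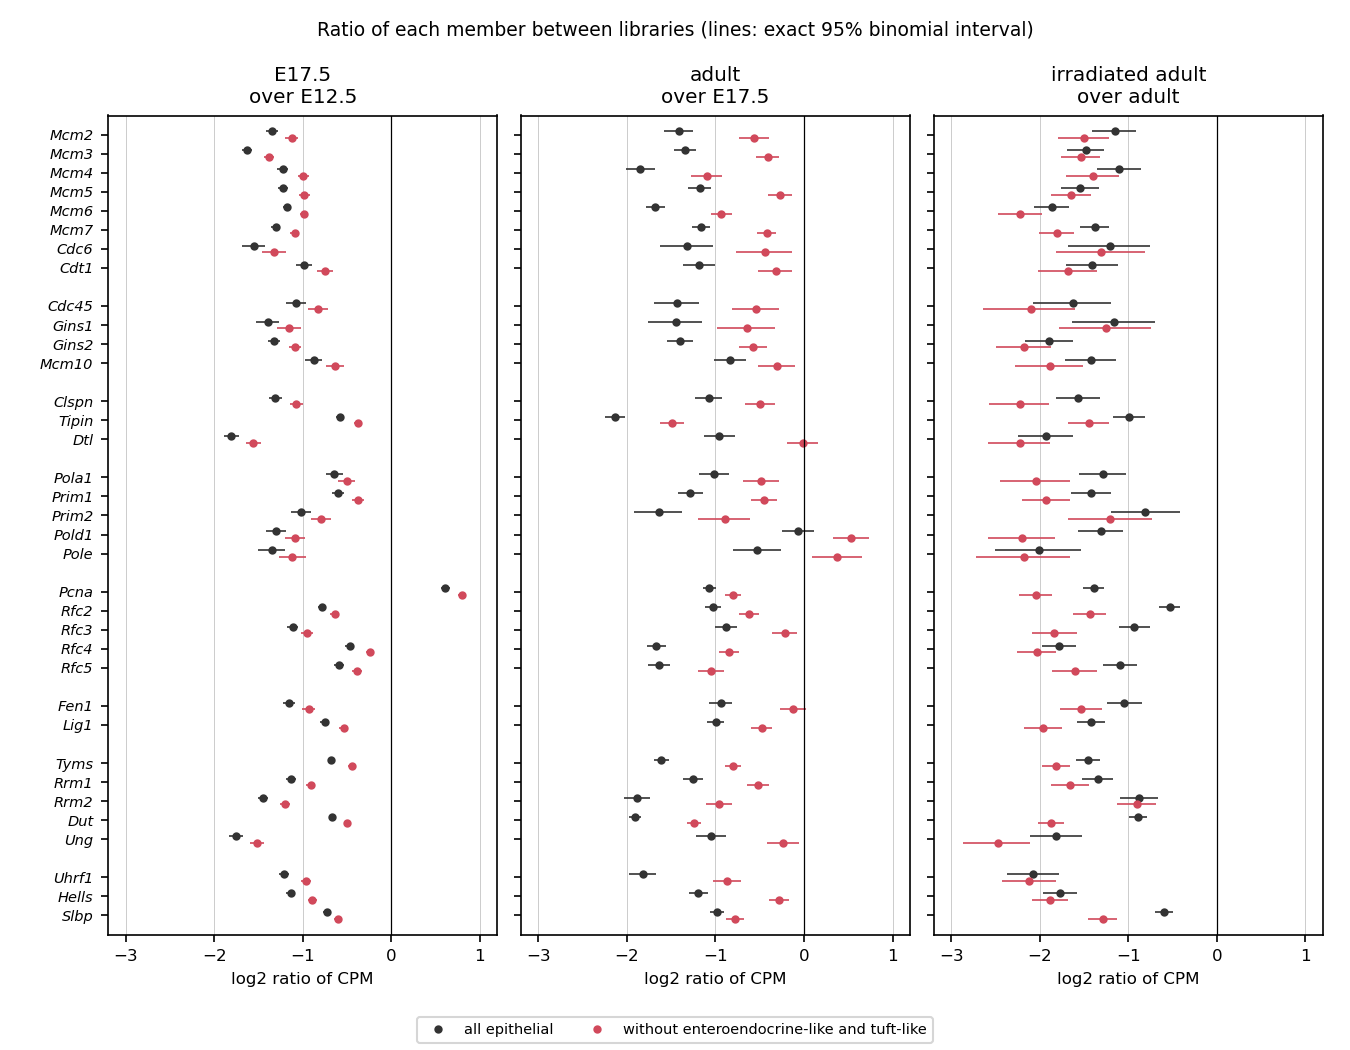
Log2 ratio of CPM, with no pseudocount, of each gene in the 3 comparisons, over all epithelial cells (dark) and over those outside the enteroendocrine-like and tuft-like classes (red), with exact conditional binomial 95% intervals as lines. In the right panel every point lies below 0, and in the middle panel the red points lie nearer to 0 than the dark ones, except for Pold1, with Pold1 and Pole above 0.

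Nucleotide supply genes took the largest share of the set's UMIs at E12.5, 26.5%, and 22.6% in the irradiated adult. Dut, the dUTPase that keeps uracil out of DNA, stood at 384, 242, 64.5 and 34.9 CPM in library order. Its log2 ratio of the adult to E17.5 was -1.89, among the 3 lowest, and it was -1.24 in other epithelial cells. Rrm2, the regulated subunit of ribonucleotide reductase, which makes deoxynucleotides, stood at 148.5, 54.5, 14.8 and 8.03 CPM in library order. After irradiation its log2 ratio was -0.81 over all epithelial cells and -0.87 in other epithelial cells, where it was the 1 gene of 35 not past 2-fold. Ung, the uracil-DNA glycosylase, stood at 84.9, 25.2, 12.2 and 3.46 CPM in library order, with log2 ratios of -1.71, -0.99 and -1.56 in turn. Tyms, which makes thymidylate, went from 222 CPM at E12.5 to 16.6 in the irradiated adult, and Rrm1, the large reductase subunit, from 134 to 10.1.

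Licensing genes gave 24.0% of the set's UMIs at E12.5 and 15.4% in the irradiated adult. Mcm6, a subunit of the helicase ring, stood at 189.6, 83.9, 26.2 and 7.17 CPM in library order. Its log2 ratio after irradiation, -1.73, was the second lowest of the set, and -2.12 in other epithelial cells. Mcm3, another subunit, stood at 156, 50.4, 19.9 and 7.12 CPM in library order, and its ratio of E17.5 to E12.5, -1.61, was among the 3 lowest. Of the 8 licensing genes, 7 were 2-fold lower at E17.5 than at E12.5 (all genes 14.4%), the exception being Cdt1 at -0.95. All 8 were in the adult against E17.5 (all genes 12.6%), and 6 after irradiation (all genes 4.78%). Cdc6, at 27.7 CPM at E12.5 and 1.63 in the irradiated adult, and Cdt1, at 44.4 and 3.72, are the loading factors.

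Helicase activation genes were 5.06% of the set's UMIs at E12.5 and 3.43% in the irradiated adult. Gins2, a subunit of the GINS complex, stood at 97.04, 38.8, 14.7 and 3.95 CPM in library order. Mcm10, which helps to start unwinding, stood at 34.3, 18.7, 10.5 and 3.90 CPM in the same order, and its ratio of the adult to E17.5, -0.78, was among the 3 highest. Cdc45 went from 28.9 CPM at E12.5 to 1.65 in the irradiated adult and Gins1 from 25.8 to 1.60. For Cdc45 the ratio after irradiation was -1.20 from summed UMIs and 0.08 from the mean of each cell's CPM, so its direction depends on how cells are weighted.

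Among fork protection and checkpoint genes, Tipin, which with Timeless steadies the fork, stood at 142, 95.3, 21.7 and 10.9 CPM in library order. Its ratio was among the 3 highest from E12.5 to E17.5 (-0.57) and the lowest of the set from E17.5 to the adult (-2.08, and -1.47 in other epithelial cells). Dtl, the substrate receptor of the ubiquitin ligase that removes Cdt1 in S phase, stood at 76.9, 21.9, 11.3 and 2.97 CPM in library order. Its ratio was the lowest of the set at E17.5 (-1.76) and -0.02 in the other epithelial cells of the adult against E17.5, with 26.1 and 25.8 CPM at E17.5 and in the adult. Clspn, which passes the stalled-fork signal to the checkpoint kinase Chek1, went from 79.1 CPM at E12.5 to 5.11 in the irradiated adult.

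Of the polymerase and primase genes, Prim1, the catalytic primase subunit, stood at 61.6, 40.7, 16.7 and 6.24 CPM in library order. Pold1, the catalytic subunit of the lagging strand polymerase, stood at 32.2, 13.0, 12.4 and 5.01 CPM in the same order. Between E17.5 and the adult it was the member nearest to no difference (log2 ratio -0.06, 95% interval -0.25 to 0.11), and it was higher in the adult in other epithelial cells (0.50). Pole, its counterpart on the leading strand, stood at 18.7, 7.34, 5.10 and 1.26 CPM, with -0.45 over all epithelial cells and 0.34 in other epithelial cells for the same comparison. These 2 polymerase genes were the members above 0 in that comparison, and the sign depends on whether the enteroendocrine-like and tuft-like cells are included. Prim2, the large primase subunit, stood at 28.0, 13.8, 4.43 and 2.53 CPM, and its ratio after irradiation, -0.62, was among the 3 highest. Pola1, the polymerase that extends the primer, went from 36.1 CPM at E12.5 to 4.70 in the irradiated adult.

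The clamp and its loader made up 14.4%, 20.6%, 22.6% and 24.6% of its UMIs in library order. Pcna, the sliding clamp, stood at 81.3, 124, 59.2 and 22.6 CPM in library order. It was the 1 member higher at E17.5 than at E12.5 (log2 ratio 0.61, and 0.79 in other epithelial cells). Rfc2, a loader subunit, stood at 142, 82.7, 40.5 and 27.9 CPM in library order, and its ratio after irradiation, -0.52, was the highest of the set. In other epithelial cells that ratio was -1.40, and from the mean of each cell's CPM it was 0.03. Rfc4 stood at 122, 88.0, 27.7 and 8.03 CPM, with a ratio among the 3 highest at E17.5 (-0.47) and among the 3 lowest after irradiation (-1.67). Rfc3 and Rfc5 went from 87.4 and 95.02 CPM at E12.5 to 11.5 and 9.55 in the irradiated adult.

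Of the lagging strand genes, Lig1, the ligase that seals the joined pieces, stood at 115, 68.6, 34.4 and 12.8 CPM in library order. Fen1, the flap nuclease, stood at 81.0, 36.5, 19.0 and 9.21 CPM. Of the chromatin and histone supply genes, Slbp, which binds replication-dependent histone mRNA, stood at 185, 112, 56.6 and 37.3 CPM in library order, and its ratio after irradiation, -0.59, was the second highest. It took 5.04% of the set's UMIs at E12.5 and 11.6% in the irradiated adult, where it ranked first. Uhrf1, which guides maintenance methylation, stood at 112, 48.3, 13.7 and 3.25 CPM, and its ratio after irradiation, -1.79, was the lowest of the set. Hells, a chromatin remodeller, went from 139 CPM at E12.5 to 8.13 in the irradiated adult.

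Classes of cells within a library differed widely. Clusters were made without the 35 genes and the listed other replication and G2/M genes, and were named from marker genes. Other cycle-linked genes, such as Mki67 and Top2a, remained available to the clustering, and the crypt base columnar list holds Cdca7. The shares of crypt base columnar stem-like cells, and ratios to them, are therefore not independent of the cycle. At E17.5, 88.0% (84.9% to 90.7%) of crypt base columnar stem-like cells had at least 3 UMIs of the set at 2000 UMIs, with a summed level of 3167 CPM. Goblet-like cells, whose leading genes also include the Paneth genes Defa24 and Defa17, reached 69.3% and 2416 CPM, and cells with epithelial markers but no lineage 67.0% and 2616 CPM. The clusters without a lineage stood at 77.1%, 50.4% and 50.8%, those at 50.4% and 50.8% being led by Spp1. Enterocyte-like cells had 27.4% and 1008 CPM, but their 3 clusters ran from 36.3% through 5% to 0 of 23 cells, which allows up to 13.0%. Islet-like cells had 11.03% and 531 CPM, and enteroendocrine-like cells 6.33% and 408 CPM. At E12.5 the cells without a lineage had 93.3% and 3703 CPM and pancreatic progenitor-like cells 81.2% and 3185 CPM.

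In the adult, crypt base columnar stem-like cells, whose leading genes include Olfm4, Mki67, Cenpf and Top2a, had 85.6% (77.0% to 91.9%) and 2598 CPM. A shallow cluster of no lineage with Olfm4 and Birc5 among its leading genes and a median of 1912.5 UMIs had 54.9% and 1728 CPM. Paneth-like cells had 13.5% and 446 CPM, enterocyte-like cells 9.46% and 463 CPM, enteroendocrine-like cells 3.11% (2.35% to 4.04%) and 312 CPM, and tuft-like cells 1.11% (0.53% to 2.03%) and 265 CPM. Tuft-like cells are differentiated, and their median depth was 4111 UMIs against 3191 for enteroendocrine-like cells. The enteroendocrine-like interval, which covers counting error only, lay above the tuft-like one. Single enteroendocrine-like clusters ran from 1.24% to 5.98%, the lowest near the tuft-like share, and whether the 2 classes differ was not tested. No cluster of the irradiated adult carried the crypt base columnar name. There the highest share was in enterocyte-like cells, 23.4% (15.3% to 33.3%) with 1038 CPM, a cluster of 98 cells led by Reg3b, Apoa4, Ccnd1 and Gsta1 with the G2/M gene Ube2c among its 10 leading genes. Tuft-like cells had 0.935% (0.255% to 2.38%) and 233 CPM, with a median of 7059 UMIs, and enteroendocrine-like cells 2.73% (2.01% to 3.61%) and 269 CPM, with 7909.5. Those 2 intervals overlap. Paneth-like cells had 1.06% and 75.4 CPM, and goblet-like cells 0 of 60, which allows up to 5%, and 129.5 CPM.

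**Figure D3:**
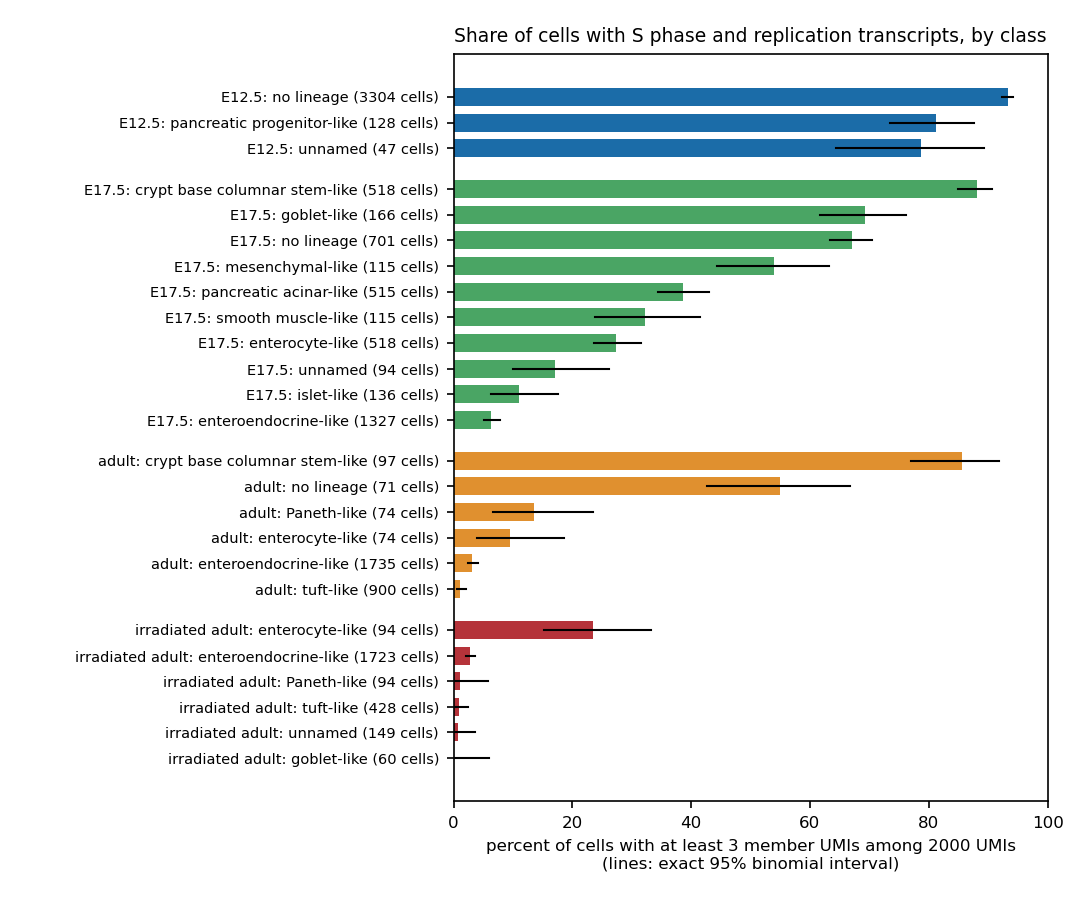
Percent of cells with at least 3 UMIs of the 35 genes after thinning to 2000 UMIs, for each class with at least 40 such cells in each library, with exact 95% binomial intervals as lines. Bars for crypt base columnar stem-like cells reach 88.0% at E17.5 and 85.6% in the adult, and the highest bar of the irradiated adult is the enterocyte-like class at 23.4%.

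Against crypt base columnar stem-like cells, all 35 genes were 2-fold lower in enteroendocrine-like cells at E17.5 (all genes 16%), in adult enteroendocrine-like cells (all genes 16.9%) and in tuft-like cells (all genes 32.1%), with medians of -3.47, -3.48 and -3.61. The medians of all genes were 0.29, 0.40 and -0.28. Enterocyte-like cells were lower in 33 genes at E17.5 (all genes 10.4%, median -1.85) and in 35 in the adult (all genes 18.7%, median -2.39), and goblet-like cells in 0 (all genes 1.33%, median -0.37). Paneth-like cells were lower in 35, but there 83.5% of all genes were, and the median of -2.39 stood beside -1.72 for all genes.

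The 35 genes differed widely in how far they were reduced in these classes. Slbp was the least reduced in enteroendocrine-like cells, at 61.8 CPM at E17.5 (163 in crypt base columnar stem-like cells, log2 ratio -1.39) and 52.9 CPM in the adult (120 and -1.16). Rrm2 was the most reduced at E17.5, at 1.75 CPM against 91.3 (log2 ratio -5.07). Mcm5, another subunit of the helicase ring, was the most reduced in adult enteroendocrine-like cells, at 1.80 CPM against 86.5 (-4.96). Pcna was at 45.0 CPM (log2 ratio -1.55) and Rfc2 at 27.1 (-1.87) in adult enteroendocrine-like cells, and Uhrf1 at 1.02 (-4.96). In tuft-like cells Lig1 was the least reduced, at 38.0 CPM against 115 in crypt base columnar stem-like cells (-1.57), followed by Pold1 at 11.5 against 38.9 (-1.67). In enteroendocrine-like cells of the same library Lig1 was at 10.8 CPM and Pold1 at 3.60. Dtl had 0 UMIs in 973 tuft-like cells, against 49.5 CPM in crypt base columnar stem-like cells, and was thus at least 76.0-fold lower, with 3 UMIs over the class, or 0.651 CPM, as the floor. The tuft-like median with Dtl at that floor was also -3.61.

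**Figure D4:**
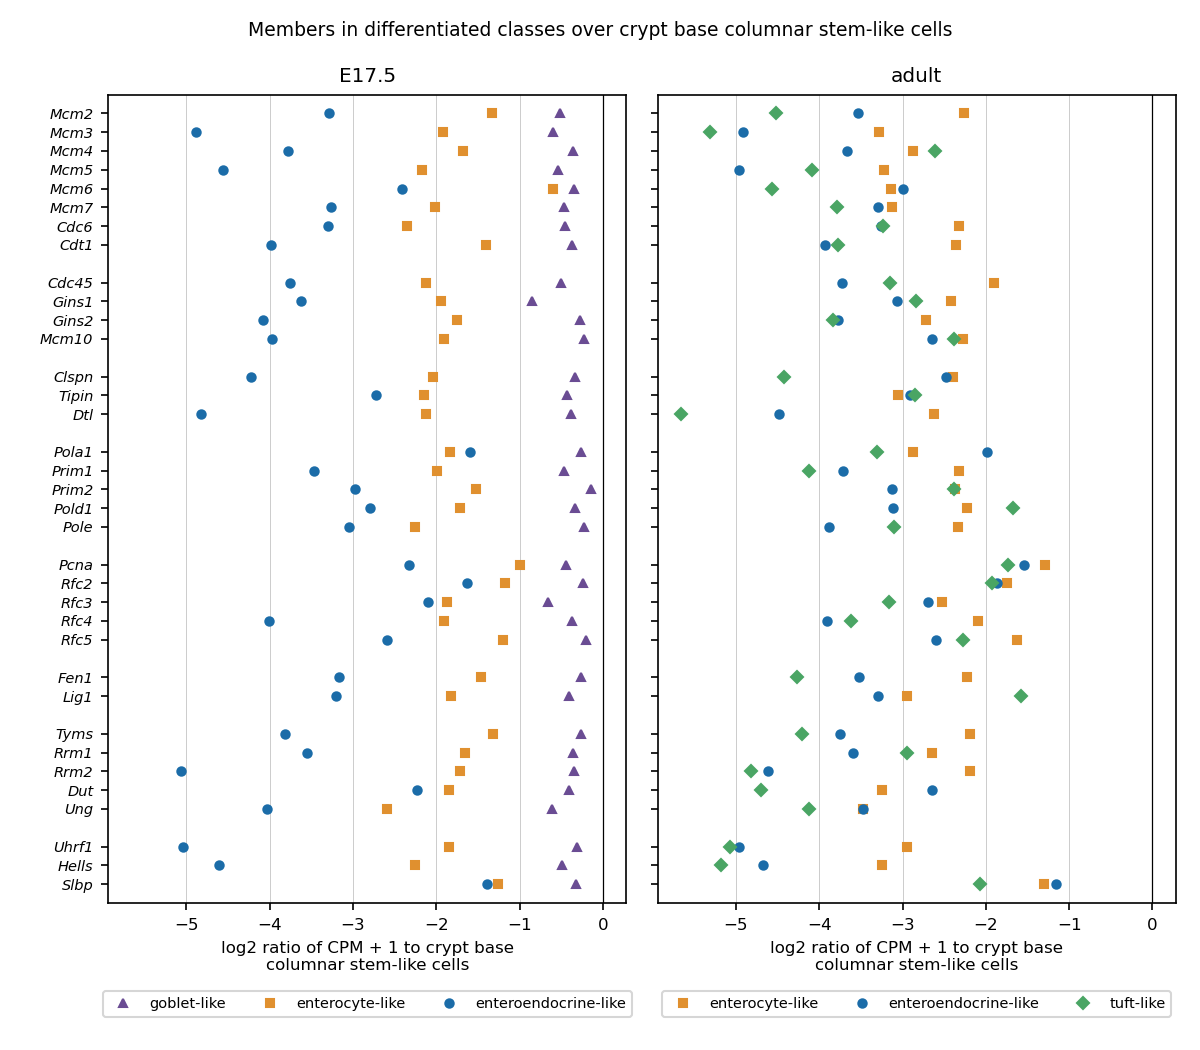
Log2 ratio of CPM + 1 of each gene in differentiated classes to crypt base columnar stem-like cells of the same library, at E17.5 and in the adult. Goblet-like cells lie between -0.85 and -0.15, and enteroendocrine-like cells spread from -5.07 for Rrm2 to -1.39 for Slbp at E17.5.

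Mcm6 stood apart in enterocyte-like cells at E17.5. It was there at 76.8 CPM against 117 in crypt base columnar stem-like cells, a log2 ratio of -0.60, where 33 other genes were 2-fold lower and Pcna lay just inside that limit. In the adult the same ratio was -3.14, with 9.89 CPM. Mcm6 was singled out after these values were seen. Its neighbour on chromosome 1 is Lct, the lactase gene of enterocytes, at 128284756 to 128328318, with 3256 bases between the 2 genes (Mcm6 at 128331575 to 128359705, GRCm38.p6). Across the 3 enterocyte-like clusters at E17.5 Mcm6 was at 86.6, 41.8 and 27.2 CPM, the last from 4 UMIs (interval 7.41 to 69.7). Lct was at 72.7, 373 and 585 CPM there. The whole set summed to 1186, 365 and 361 CPM in the same clusters, and a link between the neighbours was not tested. In adult enterocyte-like cells Lct was at 112 CPM.

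Differences were also taken within classes that both libraries held. From E17.5 to the adult, crypt base columnar stem-like cells had a median of -0.18 (all genes -0.04), with 1 gene 2-fold lower (all genes 6.84%): Tipin, at 163 and 76.8 CPM (-1.07). Pold1 was the highest there, at 22.1 and 38.9 CPM (0.79), followed by Pole (0.56). Enteroendocrine-like cells had a median of -0.24 over 34 genes that passed the minimum of 10 UMIs, with 2 lower (all genes 9.3%), Tipin (-1.26) and Dut (-1.19), and 2 higher (all genes 11.4%), Clspn and Mcm10. Clspn was at 1.94 CPM at E17.5 and 8.69 in the adult (1.72), and Mcm10 at 1.26 and 4.86 (1.37). Enterocyte-like cells had a median of -0.94, with 15 genes 2-fold lower (all genes 15.3%). Tipin and Dut were thus among the 3 lowest genes in each of these 3 classes, and Pold1 and Pole the 2 highest in crypt base columnar stem-like and enterocyte-like cells.

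Within classes of the same name, values after irradiation lay on both sides of the adult values. In enteroendocrine-like cells 1 of 33 genes was 2-fold lower (all genes 2.64%), Mcm6 at -1.06, and the median was -0.24 (all genes 0.03). In tuft-like cells 0 of 26 were lower (all genes 3.1%) and 0 higher (all genes 22%), with a median of -0.20 (all genes 0.34). In enterocyte-like cells 21 of 35 were 2-fold higher (all genes 19%), with a median of 1.26 (all genes 0.21). Mcm3 was the highest, at 8.39 CPM before and 46.8 after irradiation (2.35), Mcm5 went from 8.39 to 41.0 (2.16) and Rrm2 from 13.2 to 53.5. Pcna went the other way, at 53.9 and 41.6 CPM (-0.37). These cells were 1 cluster in each library with different leading genes. The 82 adult cells were led by Reg1, Reg3b, Apoa4, Reg3g and Fabp2, and 13.5% of them had at least 3 G2/M UMIs. The 98 irradiated cells were led by Reg3b, Apoa4, Ccnd1, Gsta1 and Areg, and 19.1% of them did. Unlike cells under 1 name and a change within like cells cannot be told apart here. In Paneth-like cells 32 of 35 were 2-fold lower (all genes 11.7%), with a median of -2.07 (all genes -0.11), Mcm6 being the lowest at 24.1 and 1.23 CPM (-3.49). Paneth-like cells were deeper after irradiation, with a median of 97751 UMIs against 30268.5, and the part of depth was not tested. The enterocyte-like and Paneth-like classes each rest on fewer than 100 cells per library. Among irradiated adult enteroendocrine-like cells, 1 cluster of 237 cells with a median of 1162 UMIs had 671 CPM. Its leading genes were Ghrl, Gip, Gcg, Rbp4, Sct, Cck, Fabp5, Scg2, Cpe and Mt1. Without that cluster the class had 261 CPM, and 0 of the 1697 thinned cells of the class's other 10 clusters had at least 3 G2/M UMIs, which allows up to 0.177%.

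To see how the genes relate to the later cycle, cells of other epithelial classes were split by 15 G2/M genes, such as Ube2c and Birc5, none of which is in the set. At E12.5, cells with 0 G2/M UMIs among 2000 (610 cells) carried on average 6.22 UMIs of the set, cells with 1 to 2 (850 cells) 8.41, and cells with at least 3 (2019 cells) 7.17. At E17.5 the means were 2.09 (758 cells), 4.76 (437 cells) and 5.37 (938 cells). Depth before thinning moved with these bins, from medians of 14305 to 22984 UMIs at E12.5 and 15068.5 to 30478.5 at E17.5, and its part was not tested. The bins also pool unlike classes. At E17.5, 64.3% of crypt base columnar stem-like, 24.1% of enterocyte-like and 0.735% of islet-like cells had at least 3 G2/M UMIs. Ratios between the bins therefore mix class with cycle phase, and the part of class was not tested. At E12.5, 85.4% of the cells without G2/M UMIs had at least 3 UMIs of the set, against 28.1% at E17.5.

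At E12.5, between G2/M-positive (at least 3) and G2/M-negative (0) cells, 4 of 35 genes were 2-fold higher (all genes 4.02%) and 1 was lower (all genes 2.3%), with a median of 0.22 (all genes -0.01). Ung was the lowest (-1.67) and the licensing factor Cdt1 next (-0.73), and 7 of the 8 licensing genes were below 0, Mcm7 being the exception at 0.12. Pole was the highest (1.83), followed by Rrm1 (1.14), Mcm10 (1.08) and Gins1 (1.03). At E17.5 all 35 genes were above 0, 20 of them 2-fold (all genes 6.84%), with a median of 1.53 (all genes -0.11). Clspn (3.25), Mcm10 (2.64) and Rrm1 (2.58) were the highest, and Pold1 (0.26), Slbp (0.40) and Ung (0.62) the lowest. Some of the highest ratios rest on few UMIs in G2/M-negative cells: 8 for Clspn and 6 for Mcm10 at E17.5, and 5 for Pole at E12.5. At E17.5 the 8 licensing genes had a median of 0.80, and the 5 nucleotide supply genes 2.02.

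**Figure D5:**
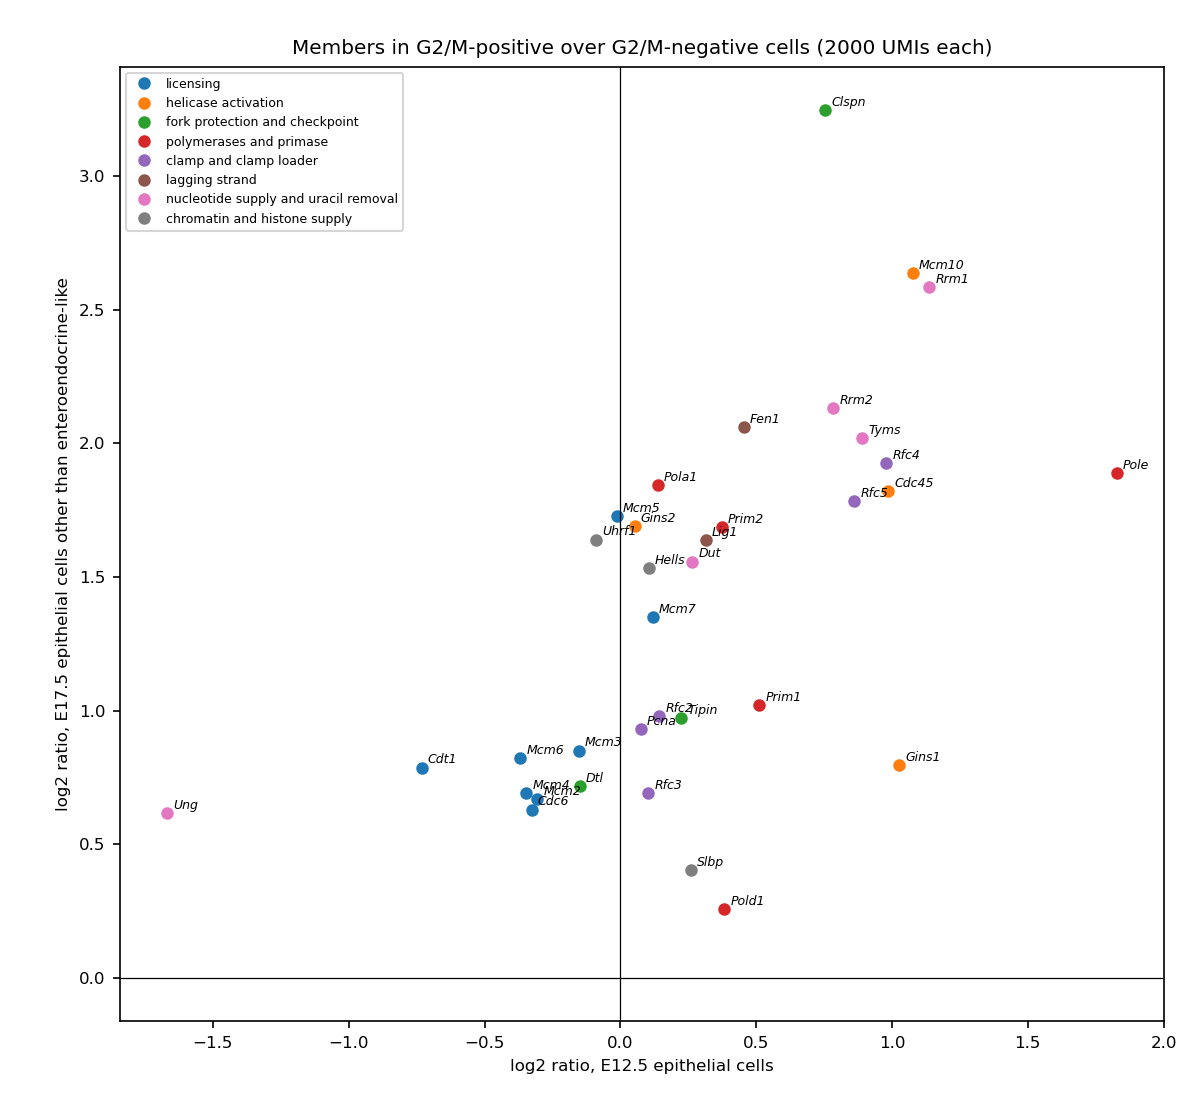
Log2 ratio of each gene in cells with at least 3 G2/M UMIs to cells with none, all thinned to 2000 UMIs, at E12.5 (horizontal axis) and in E17.5 epithelial cells other than enteroendocrine-like (vertical axis), coloured by role. Licensing genes lie mostly left of 0 at E12.5 with Ung farthest left, and all points lie above 0 at E17.5.

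The share of cells positive for both programs was also taken by class. Of the cells with at least 3 UMIs of the set, 59.0% at E12.5 and 64.0% of crypt base columnar stem-like cells at E17.5 also had at least 3 G2/M UMIs, and 55.4% did in the adult class of that name. Of the enteroendocrine-like cells with at least 3 UMIs of the set, 0 of 84 did at E17.5 and 0 of 54 in the adult, which allows up to 3.57% and 5.56%. G2/M-positive cells made up 0.226% and 0.115% of these classes in all. With so few, counts of 0 are likely even if the programs are unrelated, so they cannot show that 1 program lacks the other. In the irradiated adult 6 of 47 enteroendocrine-like cells with at least 3 UMIs of the set also had at least 3 G2/M UMIs. All 6, and all 12 G2/M-positive cells of the class, lay in the cluster of 237 cells with 671 CPM, where the 12 were 46.2% of 26 thinned cells. That cluster was led by several hormone genes at a median of 1162 UMIs, and the part of free RNA in it was not tested.

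The reporter transcript eGFP was found in few cells at 2000 UMIs: 152, 10, 9 and 77 cells in library order. At E12.5 the summed level of the set was 4056 CPM (3833 to 4289) in eGFP-positive and 3636 (3590 to 3682) in eGFP-negative cells, with shares of 94.7% and 92.5%. In the irradiated adult it was 409 CPM (314 to 523) and 272 (258 to 287), with shares of 6.49% (2.14% to 14.5%) and 2.83% (2.21% to 3.57%). Of the 63 UMIs of the set in those 77 positive cells, 31 came from 7 other epithelial cells, of which 42.9% passed 3 UMIs, against 5.38% of eGFP-negative cells of that group. The other 70, enteroendocrine-like and tuft-like, were at 229 CPM (156 to 323) against 267 (251 to 283) in their eGFP-negative counterparts, with shares of 2.86% and 2.35%, so the higher level of positive cells rests on 7 cells. The median log2 ratio over the genes was 0.11 at E12.5 (all genes -0.06) and -0.03 over 29 genes in the irradiated adult (all genes -0.05).

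Other replication genes, 43 of 44 listed being in the files, were counted the same way. From E12.5 to E17.5, 20 were 2-fold lower (all genes 14.4%) and 1 higher (all genes 13.3%). From E17.5 to the adult it was 28 (all genes 12.6%) and 0 (all genes 12.3%). After irradiation it was 17 (all genes 4.78%) and 0 (all genes 2.59%). The medians were -0.90, -1.19 and -0.84. The 2 genes of that list with most UMIs were Dctpp1, a dCTP pyrophosphatase, at 458, 256, 80.8 and 40.2 CPM in library order, and Rnaseh2c, an RNase H2 subunit, at 195, 214, 88.6 and 49.8 CPM. The extremes of the list were Timeless, the partner of Tipin and the lowest at E17.5 (-1.95), Orc6, an origin recognition subunit and the lowest in the adult (-1.99), and the thymidine kinase Tk1, the lowest after irradiation (-2.72). Pold4, a small polymerase delta subunit, was the highest at E17.5 (2.14) and after irradiation (0.35), and Rfc1 in the adult (-0.23). Of the 25 E2F and G1/S control genes, 6, 10 and 6 were 2-fold lower in the 3 comparisons (all genes 14.4%, 12.6% and 4.78%). In turn 2, 4 and 1 were 2-fold higher (all genes 13.3%, 12.3% and 2.59%). Mycn was the lowest at E17.5 (-1.99) and in the adult (-3.02), and the atypical repressor E2f8 after irradiation (-2.27). Rb1, the retinoblastoma repressor, was the highest at E17.5 (1.75), the kinase inhibitor gene Cdkn1b in the adult (1.40), and Cdkn1a, the p53-induced inhibitor p21, after irradiation (1.23, and 2.75 in other epithelial cells), at 371 CPM in the adult and 869.9 after irradiation. Of the 15 G2/M genes, 4, 14 and 15 were 2-fold lower (all genes 14.4%, 12.6% and 4.78%), with medians of -0.79, -1.74 and -1.68. Cenpf was the lowest of them at E17.5 (-1.55) and after irradiation (-2.72).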

How the data were processed

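The deposited files hold raw UMI counts per gene and cell barcode, which the authors made with Cell Ranger 3.1.0 on mm10, per the submitters' processing notes. The annotation, filters and sorting gates are not given in the sources used here. Total UMIs were 90674425, 77677622, 38648331 and 50761353 at E12.5, E17.5, adult and irradiated adult. Barcodes with at least 500 genes and no more than 20% mitochondrial UMIs were kept, and those with the highest Scrublet scores were removed as putative doublets, at 0.8% per 1000 barcodes.

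Cells were clustered per library (scanpy 1.11.5, 2000 variable genes, 30 principal components, 20 neighbours, leidenalg 0.10.2 at resolution 1) with the 35 genes and the other replication and G2/M genes left out. Clusters were named from 17 marker lists, by thresholds set after the clusters were seen. Unnamed clusters were counted among the other epithelial cells. The E12.5 library had 1 of 53 cells, whose leading genes include Krt5 but also Acta2, Col3a1 and Col1a1. The E17.5 library had 1 of 97 cells, led by Ppy, and the irradiated adult library 1 of 158 cells. The crypt base columnar list includes Cdca7, itself linked to the cell cycle.

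Levels are UMIs summed over cells as CPM. Ratios are log2 of CPM + 1, over genes that reached 10 UMIs in 1 group or both, and a gene past 2-fold is one with a log2 ratio of at least 1 or at most -1. Shares of cells were taken at 2000 UMIs per cell. Intervals are exact 95% Poisson, Clopper-Pearson or conditional binomial intervals (scipy 1.17.1) and cover counting error only. In Poisson counts simulated for E17.5 against E12.5 (15200 genes, 200 changed), 100% of changed genes had the right direction and 94.0% lay inside their interval. The values were 100% and 95.5% for the adult against E17.5 (14792 genes), and 100% and 94.0% after irradiation (13513 genes). Of genes set 4-fold apart, 85.8%, 88% and 94.8% in turn were past 2-fold. These draws follow the counting model that the intervals assume, so coverage near 95% was built in. Genes near the minimum of 10 UMIs were not among those changed. Variation between animals or libraries was not tested, so these shares speak for counting error only. The main alternatives were doublets kept, other cell filters, TMM factors (edgeR 4.0.16), other pseudocounts, other thinning depths, other clusterings and cells weighted alike, and single irradiated adult clusters were left out after seeing the data.

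Genes were named by role group: full values for the member with most UMIs in each role and for the 3 highest and 3 lowest ratios of each library comparison. From the other lists, the 2 genes with most UMIs and the extremes of each comparison could be named. The members and lists were chosen with earlier results of these data known.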

Additional observations from a re-analysis of the deposited data

Results flagged for a closer look

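The E17.5 library held cells with non-epithelial or pancreatic acinar markers that entered no comparison. Islet-like cells and the unnamed cluster led by Ppy, 3.85% and 2.68% of that library's epithelial cells, stayed in the comparisons. UMIs of the 35 genes were counted in more of the left-out cells than a count of 0 would allow. At least 3 UMIs of the set among 2000 were present in 53.9% of 115 mesenchymal-like cells, 38.6% of 515 pancreatic acinar-like cells and 32.2% of 115 smooth muscle-like cells. In mesothelial-like cells the share was 25% of 20 cells. Their summed levels were 2765, 1359, 1506 and 961 CPM. In enteroendocrine-like cells of the same library the share was 6.33%. The part of free RNA in these shares was not tested.

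After irradiation the summed level of the set lay above the adult value in 1 class and below it in 3. The log2 ratio of the irradiated adult to the adult was -0.21 in enteroendocrine-like cells (95% interval -0.27 to -0.15), -0.19 in tuft-like cells (-0.31 to -0.07), -2.57 in Paneth-like cells (-2.71 to -2.42) and 1.16 in enterocyte-like cells (1.08 to 1.25). The enterocyte-like cells were 1 cluster per library with different leading genes: Reg1, Reg3b and Apoa4 in the adult, and Reg3b, Apoa4 and Ccnd1 after irradiation. Unlike cells under 1 name and a change within like cells cannot be told apart. The difference between classes was not tested, since each class has 1 library on each side.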

How the results depend on the processing

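Of the answers recomputed under the alternatives, 161 stayed within the interval of the reported value or, for counts of genes, within 1.5 times of it, and 83 did not. For single genes, alternatives that changed only the pseudocount or the UMI minimum cannot change the sign of a ratio. With these counted in, 1361 of 1365 ratios under 13 alternatives kept their sign. The 4 that did not were Pold1 (0.50) and Pole (0.34) for the adult against E17.5 in other epithelial cells, and Cdc45 (0.083) and Rfc2 (0.03) after irradiation when cells were weighted alike. For Cdc45 that log2 ratio, 0.083, stood against -1.20 from summed UMIs. For most moves the cause was not tested.

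Values are given in library order. The summed level was 3652, 1393, 456 and 304 CPM with cells weighted alike, 5006, 2593, 923 and 377 CPM without mitochondrial and ribosomal protein genes in the totals, and 3657, 1863, 715 and 313 CPM over every barcode, where 91.4% of E12.5 cells passed 3 UMIs. TMM factors gave 3422 and 1951 CPM for the embryonic libraries and 342 CPM for the irradiated adult. The E17.5 level was 1881 CPM over all kept cells, the adult level 631 under the stricter cell filter, and the E12.5 level 3694 without low-UMI clusters, an alternative chosen after seeing the data.

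The share of cells was 65.5%, 18.6%, 3.21% and 1.06% at 1000 UMIs, 99.3%, 55.8%, 17.1% and 9.90% at 4000 UMIs, and 95.04%, 77.6%, 27.6% and 41.2% without thinning. It was 97.5%, 50.5%, 17.9% and 10.6% with at least 2 UMIs of the set, and 74.1%, 22.7%, 2.68% and 0.432% with at least 5. In other epithelial cells of E17.5, the adult and the irradiated adult it was 29.3%, 23.1% and 2.35% at 1000 UMIs, 75.3%, 53.9% and 15.04% at 4000, 91.3%, 70.97% and 61.3% without thinning, 69.01%, 56.6% and 12.1% with at least 2 UMIs, and 36.6%, 24.7% and 2.27% with at least 5. The order of the libraries was the same in all of these but the shares of all cells without thinning.

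In other epithelial cells at E17.5 the share and level were 52.6% and 2178 CPM with doublets kept, 54.01% and 2206 CPM at resolution 0.5, and 54.0035% and 2205 CPM with cycle genes in the clustering. In the irradiated adult the level was 421 CPM with doublets kept and 419.9 at resolution 2. Without the unnamed cluster of 158 cells, left out after seeing the data, they were 9.27% and 431 CPM. Under the stricter filter the irradiated adult share was 8.94% and the adult level 1192 CPM.

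The median log2 ratios of E17.5 to E12.5, of the adult to E17.5 and after irradiation were -1.62, -1.63 and -0.63 with cells weighted alike, -0.87, -0.88 and -0.64 with a pseudocount of 10 CPM, and -0.92, -0.50 and -1.75 in other epithelial cells. They were -1.42 and -1.03 for the last 2 under the stricter filter, and -1.01 for the first with TMM factors. The count of genes 2-fold lower after irradiation was 6 with cells weighted alike and 5 with a pseudocount of 10. For the adult against E17.5 it was 10 with that pseudocount and 4 in other epithelial cells, and for E17.5 against E12.5 it was 12 in other epithelial cells. Without the irradiated adult enteroendocrine-like cluster of 237 cells, left out after seeing the data, that class was at 261 CPM.

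No paired analysis was possible because each group is 1 library and no label ties libraries to an animal or replicate number. With a minimum of 2 eGFP UMIs, and in other epithelial cells of the irradiated adult, no median ratio by eGFP was taken, since fewer than 50 cells were positive. At that minimum the level was 4625 CPM (3256 to 6375) in 4 E12.5 cells, and 2 irradiated adult cells reached it, too few for a level. Library, animal and stage cannot be told apart in this design, and classes of under 100 cells limit the precision of their shares.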
